A study of Schizosaccharomyces pombe with 16 samples.

Results

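The genes described here lie at the ends of chromosomes I and II of the fission yeast Schizosaccharomyces pombe. They were chosen by their systematic names, as every identifier in both tables that begins with SPAC212, SPAC977, SPAC750, SPAC186, SPBCPT2R1, SPBC1348, SPBPB2B2, SPBPB10D8 or SPBPB21E7, the sequenced clones that cover these ends. The rule gave 104 of 7018 transcripts. In the ASM294v3 assembly 30 of them lie at the left end of chromosome I, 17 at its right end, 31 at the left end of chromosome II and 26 at its right end, and none lies farther than 99.9 kb from the end of the assembled sequence. Of the 104 genes, 91 are annotated as protein coding and 13 as pseudogenes.

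RNA-Seq compared WT cells (strain PN4) with the zfs1Δ mutant (strain 434), with 2 libraries each, and RIP-Seq compared the RNA that came down with a protein (IP) with an input of total RNA in 3 experiments for Zfs1-TAP (zfs1-TAP::kanMX6, h-) and 3 for a mock-control GFP-TAP (expressed from the nmt1 promoter at leu1 in a leu1Δ ura4-D18 h+ strain). Every culture grew exponentially in the minimal medium EMM at 25°C, and the cells of a group were of one strain. The TAP tag is captured by beads coated with an antibody to Protein A. The deposited values are normalized read counts, in an RNA-Seq table and a RIP-Seq table that were normalized apart. The study's supplement calls the RNA-Seq libraries and the Zfs1 IP experiments biological repeats. The sources used here do not say so of the GFP-TAP experiments, where p-values measure the spread between these libraries, which may be technical.

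Subtelomeres of fission yeast are packed into heterochromatin, in which histone H3 is methylated by Clr4 and bound by Swi6, and most genes there are weakly transcribed during growth. The ends of chromosomes I and II carry long blocks of nearly the same sequence, so that many of these genes exist as near-identical copies on several ends. The genes nearest to the telomere repeats, tlh1 and tlh2, encode helicases of the RecQ family. Zfs1 is a zinc finger protein of the tristetraprolin family, which binds AU-rich elements in mRNA and promotes the decay of these mRNAs.

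Because reads from copies are hard to assign, the annotated transcripts were compared with each other. A near-identical copy was defined by at least 95% identity over at least 80% of the shorter transcript on the same strand. By this definition 56 of the 104 genes fell into 19 groups of copies, 18 of which span more than 1 chromosome end. The transcripts of tlh1 (chromosome I, 1 to 5662, minus strand) and tlh2 (chromosome II, 4526885 to 4532899, plus strand) are 99.98% identical over 5662 bases, and that of tlh1 is cut off by the first base of the assembly. A second group holds ftm1 (chromosome I, 29764 to 31069, plus strand), ftm4 (chromosome I, 5565881 to 5567240, minus strand), ftm5 (chromosome II, 7980 to 9457, plus strand) and SPBPB2B2.19c (chromosome II, 4503653 to 4504944, minus strand), 1 at each end, annotated as proteins with transmembrane helices. The transcript of ftm5 is 99.78%, 99.85% and 100% identical to those of ftm4, ftm1 and SPBPB2B2.19c. Outside the 104 genes, a single copy was found, SPBPB8B6.05c, which is 95.34% identical to the L-asparaginase gene SPAC977.12. Every value of a gene with a copy is therefore uncertain as to which copy it came from, and values are given for each gene and for the summed copies.

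The nonamer TTATTTATT, the DNA form of the AU-rich element, was found on the sense strand of 13 of the 104 annotated transcripts (12.5%), against 700 of all 6843 transcripts with an annotation (10.2%). The sites are shown for the transcripts on which the results turn, with 10 bases on each side and the nonamer in capitals, from the ASM294v3 sequence. The site of ftm1 (chrI:30768-30776) and those of ftm4, ftm5 and SPBPB2B2.19c are the same in all 29 bases and lie in the 3′ UTR, whereas the nonamer of ftm2, ftm3, ftm6 and ftm7 lies in the coding sequence.
ftm1, ftm4, ftm5 and SPBPB2B2.19c, 3′ UTR: cgggattattTTATTTATTatttgtttat
fex1, 3′ UTR (chrI:56285-56293, plus strand): atctttaataTTATTTATTtttttttgtt
SPAC977.17, 3′ UTR, first of 2 overlapping sites (chrI:68994-69002, plus strand): catttactttTTATTTATTtattcttatt
SPAC212.04c, 3′ UTR (chrI:22873-22881, plus strand): gataagtcgcTTATTTATTaatttaataa
ftm2, ftm3, ftm6 and ftm7, coding sequence: aattgctgatTTATTTATTatattgttgg

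The normalized counts summed to between 42446075 and 47945097 per RNA-Seq library and to between 8042875 and 72878501 per RIP-Seq library. The number of reads sequenced is not known from them. Ribosomal RNA made up 72.1% of the Zfs1-TAP input and 34.7% of the GFP-TAP input of experiment 1 and at most 5.87% of the other libraries. The zfs1 gene had 10098 and 10660 normalized counts in WT and 6168 and 5866 in the zfs1Δ mutant, so that it was lower in the library labelled zfs1Δ in both experiments but not absent. The labels of the RIP-Seq strains were checked on leu1, whose count was 430 to 478 in the GFP-TAP inputs and 5356 to 11183 in the Zfs1-TAP inputs, and on mat1-Mc, a gene of h- cells, which was listed at 0 in all GFP-TAP libraries and at 309 to 456 in the Zfs1-TAP inputs. In the RNA-Seq libraries the value of mat1-Mc was at most 4.74.

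The WT libraries were compared first. Of the 5177 transcripts whose mean reached 1 CPM (count per 1000000) in the RNA-Seq table, only 4 (0.0773%) differed by more than 2-fold between the WT libraries on the scale of log2 of the normalized count + 1, which is the scale of every log2 ratio below and understates the change of low values. All 4 are subtelomeric genes that have a near-identical copy. They are tlh1, with 178 normalized counts in WT 1 and 3.97 in WT 2, tlh2, with 186 and 776, ftm1, with 893 and 216, and SPBPB10D8.04c, a transporter gene of the left end of chromosome II, with 502 and 1138. Among the 28 subtelomeric genes that were tested and had no copy among the 104, the largest log2 difference between the WT libraries was 0.44 in size. The mutant libraries differed by more than 2-fold for the pseudogene SPAC212.09c, which had 0 and 130 normalized counts, and for the transporter gene SPBC1348.05, which had 85.6 and 184, and both have copies too.

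**Figure D1:**
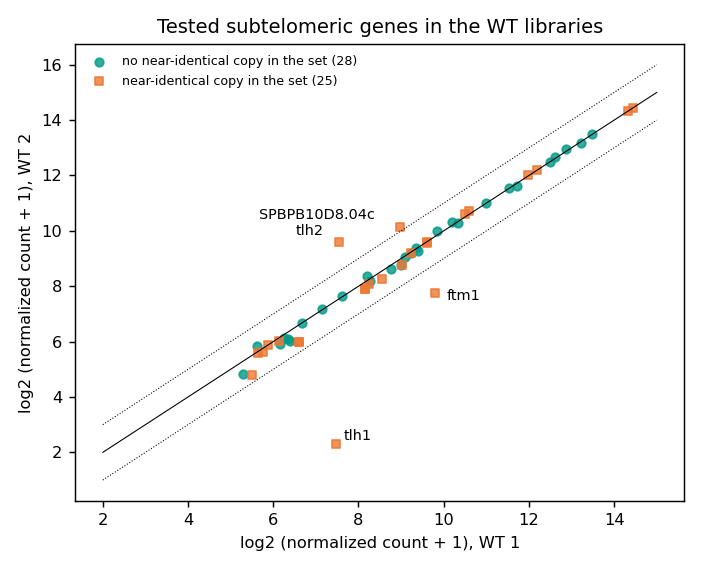
Log2 of the normalized count + 1 in WT 1 (x axis) and WT 2 (y axis) for the 53 tested subtelomeric genes, 28 without and 25 with a near-identical copy among the 104 genes. The solid line is equality and the dotted lines are a 2-fold difference, and only the 4 labelled genes, each with a copy, lie outside the dotted lines.

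Summing the copies left a difference of more than 2-fold between the WT libraries for the tlh genes alone. Together, tlh1 and tlh2 had 363 normalized counts in WT 1 and 780 in WT 2, and 926 and 783 in the zfs1Δ libraries 1 and 2. The value of WT 2 was thus about that of zfs1Δ 2, and only WT 1 stood below the other libraries. Read alone, tlh1 had the largest log2 ratio of mutant to WT among the subtelomeric genes, 3.80 ± 0.15 (SE, n = 2 libraries per group, adjusted p = 4.31e-132, limma), made of 1.32 in experiment 1 and 6.27 in experiment 2. That of tlh2 was 0.21, with 1.37 and -0.96, from 480 and 400 normalized counts in the mutant. The summed copies gave 0.68 ± 0.07 (SE, adjusted p = 2.8e-18, limma), with 1.35 in experiment 1 and 0.0058 in experiment 2, so that the rise of the tlh transcripts was seen in 1 of 2 experiments. With 2 libraries per strain limma has 1 residual degree of freedom and takes the spread of a gene mostly from the other transcripts, so the adjusted p hardly responds to such a difference between experiments. With robust empirical Bayes, which lets single transcripts have their own large spread, tlh1 alone was not called (adjusted p = 0.493, limma).

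The ftm1 group rose in both experiments. The sum of ftm1, ftm4, ftm5 and SPBPB2B2.19c was 3888 and 3468 normalized counts in WT and 13596 and 12057 in the mutant, without overlap between the strains. Its log2 ratio was 1.81 in experiment 1 and 1.80 in experiment 2, with a mean of 1.80 ± 0.05 (SE, adjusted p = 4.882e-229, limma). Among the copies, ftm5 rose from 1544 and 1686 to 5500 and 4902, with a log2 ratio of 1.69, and SPBPB2B2.19c rose from 1448 and 1565 to 5146 and 4590, with 1.69 as well. The count of ftm1 rose from 893 and 216 to 2947 and 2564, with 1.72 and 3.56 in the 2 experiments, while ftm4 had at most 2.94 normalized counts in any RNA-Seq library. The log2 ratio of 2.64 for ftm1 alone therefore rested in part on its low value in WT 2, where the sum of the copies was not low, and it was not called with robust empirical Bayes (adjusted p = 0.321, limma). The other ftm group, ftm2, ftm3, ftm6 and ftm7, summed to 7.79 and 13.2 normalized counts in WT and 20.4 and 40.1 in the mutant, values too low to be tested.

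**Figure D2:**
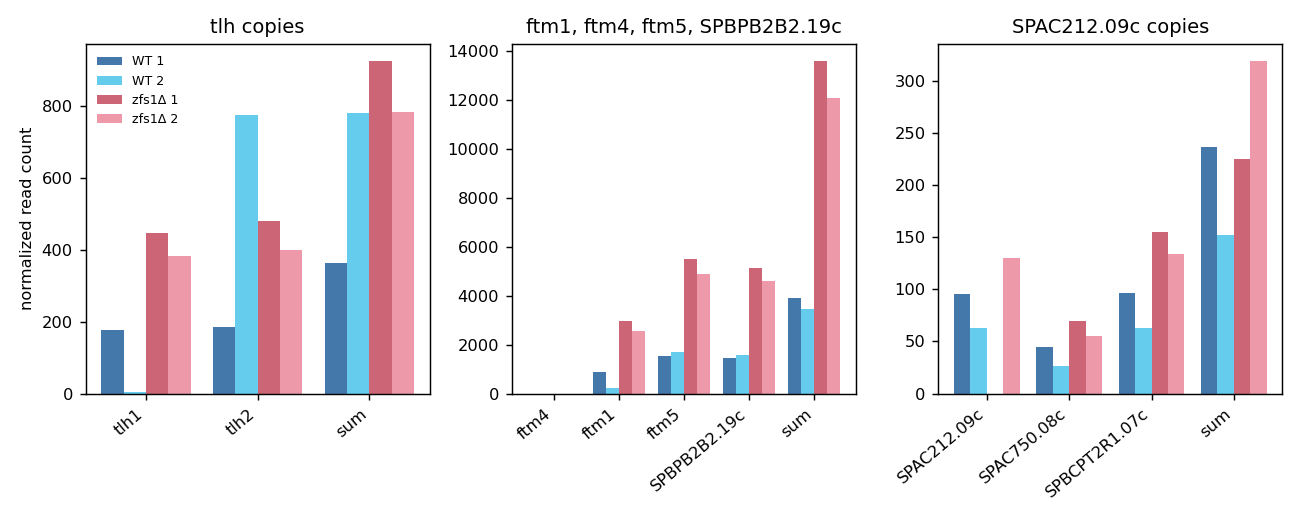
Normalized read counts (y axes, linear from 0) in the 4 RNA-Seq libraries for each near-identical copy and for their sum, for the tlh genes (left), the ftm1 group (middle) and the SPAC212.09c group (right). The sums of the ftm1 group separate the strains, the tlh sum is low in WT 1 only, and SPAC212.09c at 0 in zfs1Δ 1 is accompanied by other copies that are not low.

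Across all 4 chromosome ends, 53 of the 104 genes reached a mean of 1 CPM and were tested, and 12 were listed at 0 in every RNA-Seq library. Of the 53, 21 were higher in the zfs1Δ mutant at an adjusted p under 0.05 and at least 1.5 times WT, against 4.23% of all transcripts tested, and 11 were lower at no more than 0.66 times WT, against 2.78% (limma). As shares of the 53 genes these are 39.6% and 20.8%. The fold threshold was passed in each experiment alone by 17 of the 21 and by 9 of the 11. The median log2 ratio of the 53 genes was 0.13 and that of all transcripts 0.05. Of the genes called higher, 2 had a WT mean under the minimum of 1 CPM, and of those called lower, 3 had a mutant mean under it, so these 5 (SPAC212.07c and SPAC750.08c, and dak2, SPAC977.15 and cmt2) were tested only because of the strain in which they were higher. Among the 48 genes with both means at or over the minimum, 19 were higher and 8 lower.

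The calls were also counted apart for genes with and without copies among the 104. Of 25 tested genes with such a copy, 14 were higher and 2 lower, and of the other 28, SPAC977.12 with its copy elsewhere among them, 7 were higher and 9 lower. As copies share reads, the same table was tested with each group of copies summed, an alternative chosen after seeing the data. This gave 38 subtelomeric units, of which 13 were higher and 9 lower, beside 211 and 142 of all 5162 units. Among the 10 groups of copies in it, 6 were higher, with log2 ratios between 0.65 and 1.80.

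The calls were then counted by position along the chromosome. Of 23 tested genes that start within 40 kb of the end of the assembly, a limit chosen after seeing the data, 15 were higher and 1, SPAC212.09c, was lower in the mutant, with a median log2 ratio of 0.78. Of 30 tested genes farther in, 6 were higher and 10 lower, with a median of -0.35. The shares of all transcripts tested were 4.23% higher and 2.78% lower. Among genes whose means reached 1 CPM in both strains, 13 of 21 outer genes were higher and 1 lower, and 6 of 27 inner genes were higher and 7 lower. Copies are concentrated in the outer part, where 19 of the 23 tested genes have one, so position and copy status cannot be told apart there. Of the 15 outer genes called higher, 12 have a copy, against 2 of the 6 inner ones. As copies share reads, the 15 calls stand for fewer distinct sequences. Of the 4 tested outer genes without a copy, SPAC212.04c is described below, and SPAC212.06c, annotated as a DNA helicase-like protein, rose from 48.4 and 56.0 to 116 and 105 normalized counts. Both have relatives short of the definition of a copy. The transcript of SPAC212.06c is 90.51% identical to that of tlh2 over 474 bases. That of SPAC212.04c is 86.51% identical to that of SPBCPT2R1.04c. SPBC1348.12 had 79.8 and 67.9 in WT and 88.1 and 61.1 in the mutant (-0.003). The pseudogene SPAC212.07c, tested only because of its mutant values, had 38.1 and 27.8 in WT and 67.5 and 58.1 in the mutant, and its call was lost without WT library 2 (0.70).

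**Figure D3:**
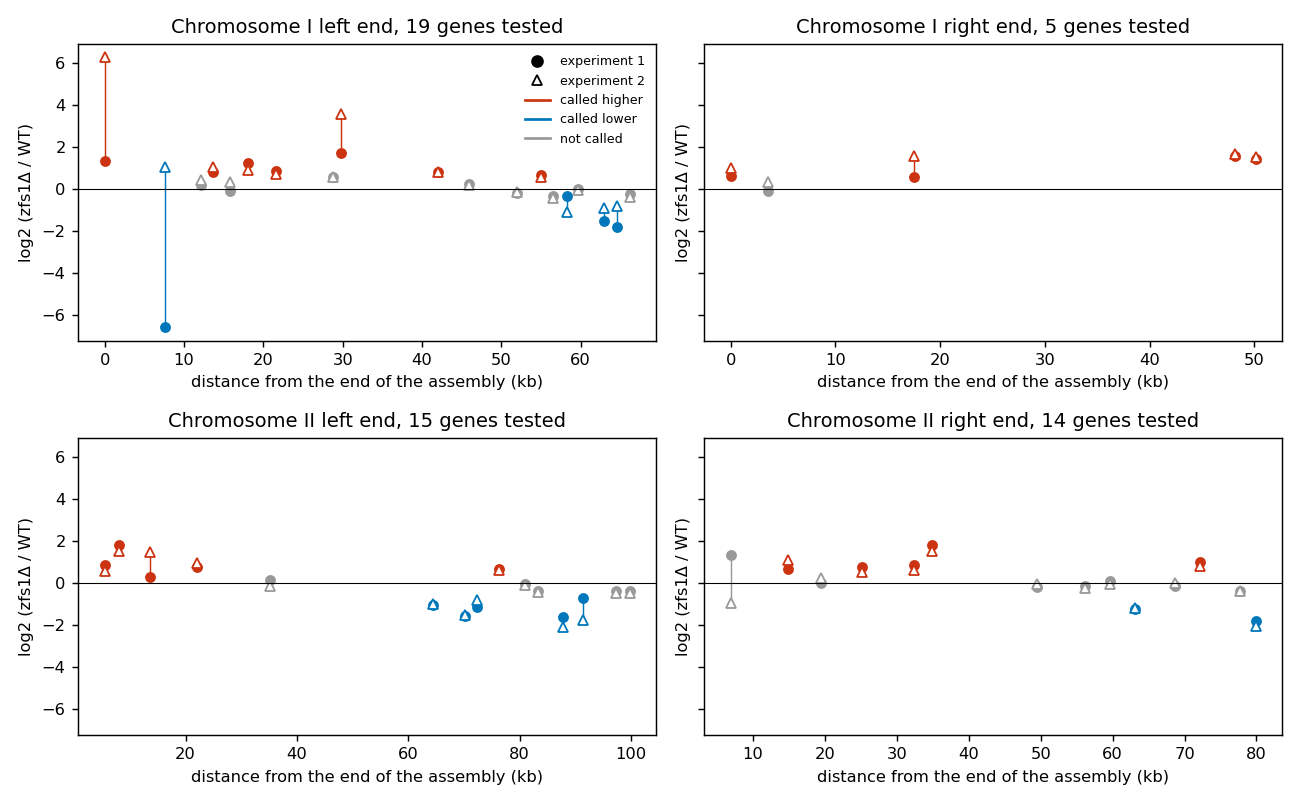
Log2 ratio of the zfs1Δ mutant to WT (y axis) against the distance from the end of the assembly in kb (x axis) for each tested gene of the 4 chromosome ends, with experiment 1 as filled circles, experiment 2 as open triangles and a line between them. Calls of higher values lie mostly within 40 kb of the end, and most calls of lower values lie farther in.

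At the left end of chromosome I, 19 of 30 genes were tested, of which 7 were higher and 4 lower, with a median log2 ratio of 0.20. The most abundant transcripts were those of SPAC977.12, an L-asparaginase gene, SPAC977.14c, an aldo-keto reductase gene, and plb4, a phospholipase gene, with 8114, 7566 and 2275 normalized counts per kb of transcript over the RNA-Seq libraries. The values of plb4 and SPAC977.14c were 4662 and 4740 in WT against 5441 and 5376 in the mutant, and 9527 and 9157 against 9629 and 8880. None of the 3 passed both thresholds, and their log2 ratios were -0.38, -0.01 and 0.20. The gene fex1, which encodes a fluoride exporter of the plasma membrane, had 2037 and 2070 normalized counts in WT and 3277 and 3040 in the mutant, that is 0.62 on the log2 scale ± 0.06 (SE, adjusted p = 1.33e-27, limma). The strains did not overlap, but the ratio was close to the 1.5-fold threshold, and fell below it under equal totals (0.51) and median centring (0.56).

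The falls at this end, SPAC212.09c apart, lay between 58.3 and 64.6 kb from the assembly end. The gene dak2, which encodes a dihydroxyacetone kinase, fell from 75.5 and 68.9 normalized counts to 20.4 and 38.0, and SPAC977.15, annotated in the dienelactone hydrolase family, fell from 69.9 and 58.5 to 23.4 and 31.0. Their log2 ratios were -1.34 ± 0.22 and -1.22 ± 0.23 (SE), and both genes, with mutant means under 1 CPM, were tested only because of their WT values. The neighbouring pseudogene SPAC977.13c had 139 and 146 in WT and 109 and 66.1 in the mutant, with -0.36 in experiment 1 and -1.13 in experiment 2, so that the fall passed the fold threshold in experiment 2 alone, and its call was lost without zfs1Δ library 2 (-0.39) or without either WT library. A different picture was given by SPAC212.09c, nearest to tlh1 among the tested genes. It was called lower (-2.78) because it was listed at 0 in zfs1Δ 1, with 130 in zfs1Δ 2 and 95.7 and 62.9 in WT, whereas it and its copies SPAC750.08c and SPBCPT2R1.07c summed to 237 and 152 in WT and 225 and 319 in the mutant. Without zfs1Δ library 1 its log2 ratio was 0.74.

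At the right end of chromosome I, only 5 of 17 genes were tested, and 4 of them were higher. The clearest were a pair without copies, 48.2 and 50.2 kb from the assembly end. The gene pfl9, which encodes a cell surface glycoprotein of the DIPSY family, rose from 309 and 292 normalized counts to 842 and 830, a log2 ratio of 1.47 ± 0.08 (SE, adjusted p = 2.13e-67, limma). Its neighbour SPAC186.02c, annotated as a hydroxyacid dehydrogenase, rose from 102 and 101 to 301 and 327, with 1.62 ± 0.12 (SE, adjusted p = 3.93e-38, limma). Each experiment gave at least 1.44 for pfl9 and at least 1.55 for SPAC186.02c, and the strains did not overlap. The transporter gene SPAC750.02c rose from 58.1 and 57.8 to 86.6 and 174, with log2 ratios of 0.57 and 1.58, and its call was lost without zfs1Δ library 2 (0.57) or without either WT library. The sum of its copies, SPAC977.04, SPBC1348.05 and SPBPB2B2.16c among them, gave 0.23 in experiment 1 and 1.49 in experiment 2. SPAC750.08c, a gene at the very end of the assembly, had 44.5 and 26.8 in WT and 69.5 and 55.1 in the mutant, was tested only because of its mutant values, and was no longer called without WT library 2 (0.47). SPAC750.07c, a copy of a GPI-anchored protein gene, had 284 and 236 against 268 and 301, and the same values were listed for its copy SPAC212.12 in every RNA-Seq library. The 12 genes that were not tested here had at most 42.1 normalized counts in any RNA-Seq library.

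At the left end of chromosome II, 15 of 31 genes were tested, with 5 higher and 5 lower and a median log2 ratio of -0.41. Near the end rose ftm5 and the transporter gene SPBC1348.05, the latter from 69.0 and 64.2 to 85.6 and 184 normalized counts, with 0.31 and 1.51 in the 2 experiments, and the call of SPBC1348.05 was lost without zfs1Δ library 2 (0.36) or without either WT library. Also called higher near the end were SPBC1348.01 (0.73) and SPBC1348.08c (0.86), and farther in SPBPB21E7.09 (0.65), 76.3 kb from the end. The falls lay between 64.5 and 91.4 kb from the end. The most abundant transcript among them was that of aes1, a gene of the phenazine biosynthesis family, which had 6283 and 6459 normalized counts in WT and 2138 and 2250 in the mutant. Its log2 ratio was -1.54 ± 0.05 (SE, adjusted p = 2.53e-169, limma), with -1.56 and -1.52 in the 2 experiments. The adjoining pseudogene SPBPB21E7.08 fell from 196 and 198 to 88.8 and 114, the catechol O-methyltransferase gene cmt2, tested only because of its WT values, fell from 82.9 and 64.0 to 40.1 and 32.1, and the pseudogene SPBPB10D8.03 fell from 293 and 333 to 94.9 and 77.1. Their log2 ratios were -0.96, -1.002 and -1.86, each with the same sign in both experiments, and none of the 4 genes has a copy.

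The most abundant subtelomeric transcripts of all were a tandem group of transporter genes at this end. Their summed copies, SPBPB10D8.04c, SPBPB10D8.05c, SPBPB10D8.06c and SPBPB10D8.07c, had 43317 and 43690 normalized counts in WT and 33140 and 31052 in the mutant, and the difference of -0.44 (log2) did not reach the fold threshold. SPBPB10D8.06c and SPBPB10D8.07c held nearly all of it and gave -0.42 and -0.43. SPBPB10D8.04c alone was called lower (-1.24, from 502 and 1138 to 307 and 334), and SPBPB10D8.05c was listed at 0 in all RNA-Seq libraries. In the RIP-Seq inputs SPBPB10D8.05c had between 0.70 and 2527 normalized counts, so that its value varied widely from library to library. The gene beside this group, SPBPB10D8.01, annotated as a cysteine transporter, had 7445 and 7930 in WT and 7308 and 7363 in the mutant (-0.07).

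At the right end of chromosome II, 14 of 26 genes were tested, with 5 higher and 2 lower and a median log2 ratio of 0.09. The largest rise was that of SPBPB2B2.19c, given above. SPBPB2B2.05, annotated as a class I glutamine amidotransferase, lies 72.2 kb from the end and has no copy, and it rose from 1180 and 1286 normalized counts to 2358 and 2247, a log2 ratio of 0.90 ± 0.06 (SE, adjusted p = 1.33e-49, limma). The pseudogene SPBCPT2R1.07c, a copy of SPAC212.09c, rose from 96.8 and 62.9 to 156 and 134, and was not called without WT library 2 (0.57). The amino acid permease gene nrg1, the innermost gene of this end, fell from 920 and 1011 to 262 and 244, with -1.81 and -2.04 in the 2 experiments and -1.93 ± 0.08 overall (SE, adjusted p = 1.41e-111, limma). SPBPB2B2.08, an uncharacterized gene, fell from 508 and 430 to 218 and 191 (-1.19). On the telomere side of SPBPB2B2.08 lie the galactose genes, which are off in many growth media, and gal1, the galactokinase gene, had 544 and 527 in WT and 481 and 514 in the mutant (-0.11). The abundant transcripts of the phosphatase gene SPBPB2B2.06c and of pan5, a 2-dehydropantoate 2-reductase gene, had log2 ratios of -0.06 and 0.03.

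The Zfs1 IP was compared with its input to ask which subtelomeric transcripts came down with Zfs1. Of 42 genes tested, 4 were higher in the IP at an adjusted p under 0.05, against 9.6% of all transcripts tested, and 5 were lower, against 10.6% (limma). As a share, 4 of 42 is 9.52%, about that of all transcripts. The 4 were ftm5 (3.75 ± 0.69, log2 IP to input, SE, adjusted p = 3.5e-06), SPAC977.17 (3.03 ± 0.69, adjusted p = 0.000367), ftm1 (2.68 ± 0.89, adjusted p = 0.0186) and fex1 (1.82 ± 0.71, adjusted p = 0.0496, limma, n = 3 experiments each). All 4 transcripts hold the nonamer in the 3′ UTR. As ftm5 and ftm1 are copies, the 4 stand for 3 distinct sequences. Their copy SPBPB2B2.19c, with the same nonamer, had -0.95 (adjusted p = 0.431, limma). Its log2 ratios were 1.96, 0.60 and -5.405 in experiments 1 to 3. The sum of the copies gave 3.12 (adjusted p = 0.000285, limma). Leaving out experiment 2 or 3 ended all 4 calls (log2 ratios between 1.43 and 3.53), and only 10 or 12 transcripts of the whole table were then called higher. The call of fex1 also ended with a pseudocount of 8 (adjusted p = 0.0552, limma) and with 1 prior spread for all transcripts (adjusted p = 0.0609, limma). In the GFP IP, the background of the assay, 37 genes were tested, of which 2 were higher, against 11.1% of all transcripts, and 5 were lower, against 7.3%. Without the experiment as a block, 0 genes were called higher and 0 lower in the GFP IP (limma, unadjusted p under 0.05 for 10 with the block).

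The values behind these calls were as follows. In the Zfs1 experiments 1 to 3, ftm5 had 81.2, 86.1 and 51.1 normalized counts in the input and 573, 1669 and 955 in the IP, whereas in the GFP experiments it had 125, 124 and 22.5 in the input and 39.5, 2.02 and 1.99 in the IP. The transcript of SPAC977.17, a gene of the MIP superfamily of channel proteins, had 127, 146 and 117 in the Zfs1-TAP input and 563, 2255 and 954 in the IP. Each Zfs1 IP was above every input for both genes. The fluoride exporter gene fex1 had 231, 319 and 305 in the input and 323, 1930 and 1586 in the IP, a rise of 0.48 on the log2 scale in experiment 1 against 2.59 and 2.38 in experiments 2 and 3. In the GFP IP fex1 had 46.3, 2.90 and 147 from inputs of 87.3, 138 and 128, so that its GFP ratio also varied widely. The transcript of ftm1 had 86.05, 4.43 and 3.95 in the Zfs1-TAP input and 410, 29.5 and 48.3 in the IP. The mean of its inputs was under 1 CPM, so that ftm1 was tested only because of its IP values.

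The difference between the enrichments with Zfs1 and with GFP was tested over all 12 RIP-Seq libraries. Of 39 genes tested, 3 were enriched more with Zfs1, against 9.86% of all transcripts, and 5 less, against 11.3% (limma). The 3 were ftm5, with a log2 difference of 7.08 ± 0.99 (SE, adjusted p = 2.73e-10), fex1, with 3.77 ± 0.85 (adjusted p = 0.00031), and SPAC977.17, with 3.32 ± 0.83 (adjusted p = 0.00142, limma). The call of ftm5 held without any 1 experiment, that of fex1 ended without experiment 2 (1.78) and without the experiment as a block (adjusted p = 0.0536), and that of SPAC977.17 ended without experiment 2 (2.85) or 3 (3.65). The difference of ftm5 alone rested in part on very low GFP IP values in experiments 2 and 3 (2.02 and 1.99 normalized counts). Its copy SPBPB2B2.19c alone had a difference of -3.69, which was not called (adjusted p = 0.0502, limma). The sum of ftm5 with ftm1, ftm4 and SPBPB2B2.19c gave 4.56 ± 0.86 (SE, adjusted p = 8.12e-06, limma). This sum had 311, 140 and 96.4 normalized counts in the Zfs1-TAP input and 1556, 1781 and 1003 in the IP, and 162, 146 and 34.95 in the GFP-TAP input against 55.8, 59.8 and 11.3 in the GFP IP. The log2 ratio of IP to input of the sum was 2.32, 3.66 and 3.37 with Zfs1 and between -1.55 and -1.27 with GFP. The tlh genes, which lack the nonamer, were measured in the same way. Their sum had log2 ratios of -0.88, 0.46 and 0.17 with Zfs1 and -0.20, -0.41 and -0.18 with GFP, and the difference was 0.18 (adjusted p = 0.902, limma), with an SE of 0.87.

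**Figure D4:**
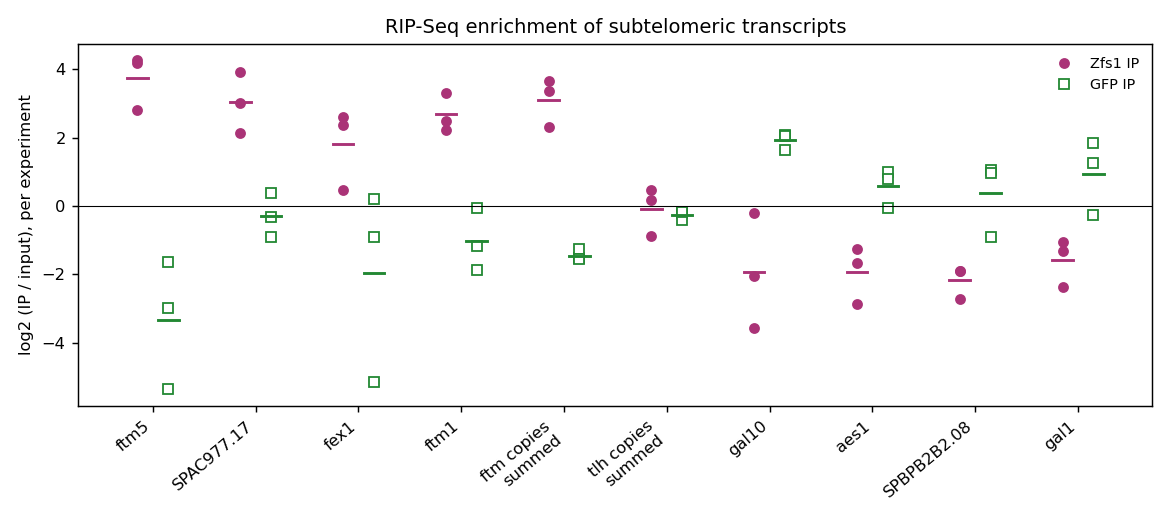
Log2 ratio of IP to input (y axis) in each of 3 experiments with Zfs1-TAP (filled circles) and GFP-TAP (open squares) for subtelomeric transcripts and for 2 sums of copies, with the mean as a bar. For ftm5, SPAC977.17 and the ftm sum all Zfs1 values lie above all GFP values, and for the tlh sum they overlap.

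The transcripts enriched less with Zfs1 than with GFP were those of gal10, an epimerase gene of galactose use (-3.86 ± 1.02), the transporter gene SPBPB10D8.05c (-3.40 ± 0.84), SPBPB2B2.08 (-2.55 ± 0.92), gal1 (-2.53 ± 0.80) and aes1 (-2.52 ± 0.72, all log2 with SE, limma). All 5 calls ended without experiment 2, and all but that of SPBPB10D8.05c ended without experiment 3. Without experiment 1 the call of gal1 ended (-1.68) and the difference of SPBPB10D8.05c changed sign (2.41). Without the experiment as a block all but the call of aes1 ended. With equal library totals those of aes1 (-1.59), SPBPB2B2.08 (-1.63) and gal1 (-1.60) ended. For aes1 the Zfs1-TAP input had 2772, 827 and 838 normalized counts and the IP 377, 344 and 261, while the GFP-TAP input had 1920, 1086 and 896 and the GFP IP 1854, 2157 and 1563. Each of the Zfs1 IPs was thus below its input. For gal10 the GFP IP (459, 129 and 116) stood above its input (108, 40.7 and 27.1) in every experiment, and the Zfs1 IP (86.0, 22.7 and 5.09) below its input (360, 26.1 and 71.6). SPBPB10D8.05c belongs to the tandem copies, whose sum had a difference of -1.14 that was not called (adjusted p = 0.254, limma). Of the 5, aes1 and SPBPB2B2.08 were also lower in the zfs1Δ mutant than in WT.

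The nonamer and the calls were set side by side. Of 13 subtelomeric genes with the nonamer, 6 were tested in the Zfs1 IP and 4 were higher, against 44.7% of all tested transcripts with it. Among the 4 is ftm1, which was tested only because of its IP values. Of 36 tested genes without it, 0 were higher (limma, 2 of them at an unadjusted p under 0.05), against 5.08% of all tested transcripts without it. Among the RNA-Seq values, 6 genes with the nonamer were tested, and 5 were higher in the zfs1Δ mutant, namely ftm1, ftm5, SPBPB2B2.19c, fex1 and SPAC212.04c. Among all transcripts with the nonamer the share called higher was 19.01%, and among those without it 2.33%. Since ftm1, ftm5 and SPBPB2B2.19c are copies, the 5 genes stand for 3 distinct sequences. SPAC212.04c rose from 604 and 587 normalized counts to 1103 and 954, and its values in the Zfs1 IP were 66.6, 53.6 and 44.2 against 143, 33.5 and 25.6 in the input. The remaining gene of the 6, SPAC977.17, was enriched in the Zfs1 IP but had 676 and 611 in WT and 561 and 465 in the mutant (-0.33). Of 47 tested genes without the nonamer, 16 were higher in the mutant (34.04%), beside 83.33% of the 6 with it. Of the 47, 11 were lower (23.4%), against 2.76% of all tested transcripts without it. Most calls at the chromosome ends were on genes that lack the nonamer, as are most of the genes tested.

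The inputs of the Zfs1-TAP and GFP-TAP strains gave total RNA of 2 further genotypes. Of 38 subtelomeric genes tested, 0 were higher and 0 lower in the Zfs1-TAP inputs (limma, 9 at an unadjusted p under 0.05), against 0.102% and 0.0679% of all transcripts. The calls of this comparison depended on experiment 1, without which 7 were higher and 6 lower, beside 849 and 363 of all 5895 transcripts tested. With the experiment as a block 5 were higher and 1 lower, beside 42 and 16 of all 5893. The tlh sum was 197, 75.9 and 91.8 normalized counts in the Zfs1-TAP strain and 186, 150 and 445 in the GFP-TAP strain, a log2 difference of -1.05 ± 0.62 (SE, adjusted p = 0.838, limma). In these 6 libraries nearly all tlh counts were on tlh2, with at most 5.21 on tlh1, unlike the RNA-Seq libraries other than WT 2.

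As the tables were normalized apart, levels across them were compared only as CPM outside ribosomal RNA, that is the normalized count as a share of all normalized counts other than those of ribosomal RNA, and without a test. Of 6174 transcripts that reached 1 CPM in some library, 7 (0.113%) were at least 4 times higher in every RNA-Seq library than in every RIP-Seq input, and 6 of the 7 are subtelomeric genes. They are pfl9, SPAC186.02c, SPAC212.08c, SPBC1348.01, SPBCPT2R1.01c and SPBPB2B2.19c, chosen by this comparison. For pfl9 the WT libraries had 7.46 and 6.78 CPM and the inputs 0.139 to 0.428, and for SPAC186.02c the WT libraries had 2.46 and 2.33 and the inputs at most 0.0602. Neither gene has a copy. The other 4 are copies, and of their 3 groups only that of SPBPB2B2.19c met the criterion when summed. The lowest RNA-Seq value and the highest input were 59.3 and 16.7 CPM for the group of SPBC1348.01 and SPBCPT2R1.01c, and 24.3 and 6.75 CPM for that of SPAC212.08c. The summed ftm1 group had 93.95 and 80.4 CPM in WT, 297.9 and 271 in the mutant and 4.34 to 18.2 in the inputs, whereas the tlh sum had 8.78 and 18.1 in WT and 8.37 to 55.2 in the inputs and so overlapped. In the other direction 5 of the 71 subtelomeric genes considered were at least 4 times higher in every input, a smaller share than the 12.9% of all transcripts. Among them was gdt1 (10.99 to 60.7 in the inputs and 0.083 to 0.60 in the RNA-Seq libraries). Another of the 5, SPBPB10D8.05c, is a copy, and the sum of its group was lower in every input (291 to 536 CPM) than in any RNA-Seq library (698 or more). The strains, the RNA extraction and the normalization all differ between the tables and cannot be told apart.

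**Figure D5:**
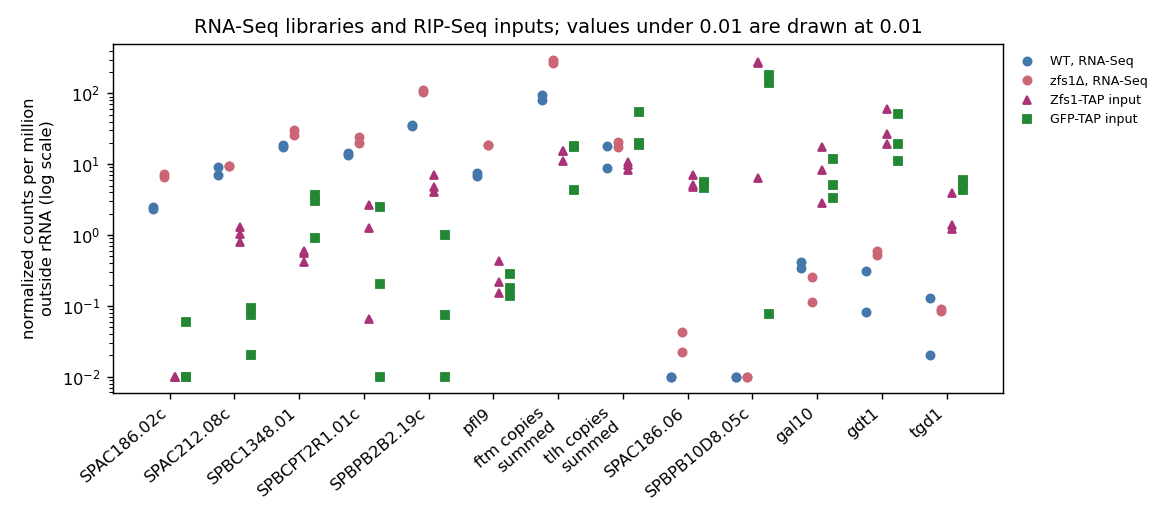
CPM outside ribosomal RNA (y axis, log scale, values under 0.01 drawn at 0.01) in the WT and zfs1Δ RNA-Seq libraries and the Zfs1-TAP and GFP-TAP inputs, for the 6 subtelomeric genes higher in every RNA-Seq library, 2 sums of copies, and the 5 genes higher in every input. The RNA-Seq points of the ftm sum lie above all its input points, and those of the tlh sum overlap with them.

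Genes outside the chromosome ends were measured beside these results. Of 31 genes for heterochromatin and telomere factors, 28 were tested in the RNA-Seq table and 0 passed both thresholds in the zfs1Δ mutant (limma, 8 at an unadjusted p under 0.05 and 7 at an adjusted p under 0.05), with a median log2 ratio of 0.04 beside 0.05 for all transcripts. The 7 all rose, short of the fold threshold. They were chp1 (0.52), clr4 (0.33), epe1 (0.32), ers1 (0.26), mit1 (0.185), clr1 (0.18) and hrr1 (0.15). In the Zfs1 IP, 2 of the 31 were higher than in the input, against 9.6% of all transcripts. They were clr4, the gene for the H3 lysine methyltransferase (3.82 ± 0.77, SE, adjusted p = 3.68e-05, limma), and rik1, the gene for a subunit of the same complex (2.00 ± 0.76, adjusted p = 0.0444). Of the 31, only clr4 was enriched more with Zfs1 than with GFP, against 9.86% of all transcripts. Of 12 stress response genes, gpd1, hsp9, hsp16 and ish1 were called higher in the mutant, against 4.23% of all transcripts. Of 8 genes of nitrogen starvation, isp4, isp5, mei2 and ste11 were called lower, against 2.78%. Both lists were mixed at an adjusted p under 0.05 short of the fold threshold (limma). There ctt1, hsp104, tps1, ntp1 and pyp2 rose and atf1 (-0.27) and srx1 (-0.48) fell in the first list. In the second, fnx1 (0.56), per1 (0.44) and isp7 (0.42) rose and isp6 (-0.16) fell. The part of these genes in the values of the subtelomeric genes was not tested.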

How the data were processed

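Total RNA of WT and zfs1Δ cells, and IP and input RNA of Zfs1-TAP and GFP-TAP cells, was depleted of ribosomal RNA and sequenced as strand-specific 100 bp paired ends. The authors mapped reads to a PomBase genome of 16 September 2013 with Bowtie 0.12.7 inside RSEM 1.1.19, with up to 3 mismatches, and normalized the counts with edgeR. The deposited values are these normalized read counts (a signal, not whole reads), in 1 table per assay.

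Here 1 was added, log2 was taken, and transcripts whose mean reached 1 CPM were fitted together with limma 3.58.1 in R 4.3.3 (a spread that depends on the mean level, the experiment as a block except between inputs, Benjamini-Hochberg adjustment over all transcripts tested). RNA-Seq calls needed an adjusted p under 0.05 and a ratio of at least 1.5 or at most 0.66, and other calls an adjusted p under 0.05. Copies were found with blastn 2.17.0. The authors' genome build is not named, so coordinates, UTRs and the nonamer come from ASM294v3, in which 6843 of 7018 identifiers had an annotation. The labels give an IP and an input the same experiment number, and the authors' tests allowed for paired samples, without saying whether both came from 1 extract. The pairing was checked by the correlation of deviations from the group means, which was 0.23 to 0.48 for the Zfs1 pairs, 0.10 to 0.28 for the GFP pairs, 0.24 to 0.66 between inputs and -0.07 in the RNA-Seq table. The script was tested on simulated data.

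Genes were named by a rule: tlh1, ftm1, the 3 most abundant genes of each end, up to 12 called per direction in the mutant and 6 in the RIP-Seq contrast, and the gene of each end whose WT libraries differed most. SPAC212.04c, ftm2 to ftm7, SPAC212.08c, SPAC212.12, SPBC1348.01, SPBC1348.08c, SPBC1348.12, SPBPB21E7.09, SPBCPT2R1.01c, SPBCPT2R1.04c and gdt1 were named after their values or sequences were seen. So were the listed heterochromatin, stress and nitrogen starvation genes that fell short of the fold threshold. The genes and lists were chosen with earlier results of these data known.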

Additional observations from a re-analysis of the deposited data

Results flagged for a closer look

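For 8 genes the ratio of IP to input differed between Zfs1 and GFP by the test of the difference itself (limma over 12 libraries). The log2 differences were 7.08 for ftm5, 3.77 for fex1 and 3.32 for SPAC977.17, higher with Zfs1, and -3.86 for gal10, -3.4 for SPBPB10D8.05c, -2.55 for SPBPB2B2.08, -2.53 for gal1 and -2.52 for aes1, lower with Zfs1. For SPBPB10D8.05c the GFP ratios were 7.98, -0.70 and -8.05 in experiments 1 to 3, and without experiment 1 the difference changed sign. For the other 7 every Zfs1 ratio lay on one side of every GFP ratio.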

How the results depend on the processing

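The counts of subtelomeric genes called higher and lower in the zfs1Δ mutant, 21 and 11, were 21 and 11 with a pseudocount of 8, 18 and 11 with equal totals, 19 and 10 with median centring, 19 and 9 with robust empirical Bayes, and 21 and 10 without the replicate block. The counts of all transcripts, 219 and 144, were 210 and 133, 147 and 193, 169 and 168, 211 and 139, and 219 and 143 in the same order. Leaving out 1 library gave 17 to 20 higher and 7 to 10 lower, the 7 without WT replicate 1. Summing copies gave 13 and 9. Without a filter on low values 0 subtelomeric genes were called in any of the 5 comparisons. The whole table lost its calls too. Of all 7018 transcripts, 0 were then higher and 0 lower in the mutant, and 0 and 0 in the Zfs1 IP. There were 0 and 1 in the GFP IP, 9 and 3 in the contrast and 2 and 2 between inputs. The cause was not tested. In the Zfs1 IP (4 higher, 5 lower), a pseudocount of 8 gave 3 and 4, copies summed gave 3 and 2, equal totals 6 and 2, median centring 7 and 13, and leaving out 1 experiment 0 to 10 and 0 to 12. The counts of all transcripts, 569 and 631, moved as well. They were 568 and 599 with a pseudocount of 8, 950 and 191 with equal totals and 1683 and 2092 with median centring. Leaving out 1 experiment gave 10 to 2134 and 27 to 1652 of them. In the GFP IP (2 and 5), equal totals gave 0 and 3, median centring 2 and 0, robust empirical Bayes 3 and 3, no replicate block 0 and 0, 1 prior spread for all transcripts 0 and 0, copies summed 3 and 3, and leaving out 1 experiment 1 to 3 and 2 to 6. All transcripts went from 651 and 430 to 174 and 313, 602 and 231, and 658 and 386 in the first 3 of these. They were 117 and 30 without the block, 2 and 10 with 1 prior spread, and 142 to 466 and 86 to 304 without 1 experiment. In the contrast (3 and 5), equal totals gave 5 and 2, median centring 6 and 7, no replicate block 2 and 1, pseudocount 8, robust fits and 1 prior spread up to 4 and 5, and leaving out 1 experiment 1 to 4 and 0 to 4. All transcripts went from 585 and 671 to 1016 and 103 with equal totals and 1206 and 1580 with median centring. They were 432 and 596 without the block, 397 and 215 with 1 prior spread, and 38 to 1147 and 37 to 903 without 1 experiment. Between inputs (0 and 0), equal totals gave 2 and 1, robust empirical Bayes 2, 1 prior spread 2, the replicate block 5 and 1, and leaving out 1 experiment 0 to 7 and 0 to 6. All transcripts went from 6 and 4 to 13 and 24, 8 and 2, 7 and 3, and 42 and 16 in the same order. Without 1 experiment they were 5 to 849 and 2 to 363.

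Signs changed for SPAC212.09c in the mutant (-6.297 to 0.738 with 1 library left out, the latter without zfs1Δ replicate 1, and 0.493 with copies summed) and for tlh2 in the mutant (-0.823 without WT replicate 1 to 1.234 without WT replicate 2). They changed for SPBPB10D8.05c (-4.372 to 3.639 in the GFP IP and -8.336 to 2.406 in the contrast, the positive values without experiments 3 and 1). They also changed for SPBPB21E7.08 in the GFP IP (-2.644 to 0.079, the latter without experiment 3). For SPBPB2B2.19c the Zfs1 IP gave -0.949 alone and 3.116 with copies summed, and the contrast gave -3.689 and 4.564. Robust empirical Bayes left ftm1, tlh1, SPAC212.09c and SPBPB10D8.04c uncalled in the mutant. The cause of these changes was not tested. Equal totals moved the median log2 ratio of all transcripts from -0.45 to 0.23 in the Zfs1 IP and from -0.35 to 0.58 in the contrast. The variance model with 1 prior spread and the summing of copies were chosen after seeing the data. With 2 RNA-Seq libraries per strain, and reads of copies shared, falls or rises of genes under about the minimum of 1 CPM were not detectable.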
